A study of Mus musculus with 5 samples.

Results

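The 40 cell cycle and DNA replication genes described here were chosen by name, as a list of genes that dividing cells are known to use, and were found by symbol among the 46983 genes of the deposited count tables. All 40 were found and all 40 had enough counts to be tested among 14580 genes. They were divided by textbook role into 15 replication genes, which license and fire replication origins, copy DNA or supply nucleotides, and 25 mitosis genes, which condense, attach and separate chromosomes or drive the entry into and exit from mitosis. The libraries were RNA-seq libraries of cells freshly sorted from orthotopic EO771 tumours. EO771 is a mammary carcinoma line from the mouse, grown here in C57/BL6 mice (the strain as the labels spell it). The sort took cells with CD45, CD11B and F4/80 and without Ly6G, which the labels call tumour-associated macrophages (TAMs). Treg-ablated tumours (2 libraries) received diphtheria toxin (2 doses, each 50 µg per kg) to remove regulatory T (Treg) cells and were sorted 4 days later, and control tumours (3 libraries) were left untreated. The allele that makes Treg cells sensitive to the toxin, the age of the mice and whether animals were pooled are not given in the sources used here. As the controls received no toxin, an effect of the toxin and one of Treg loss cannot be told apart. The labels do not tie libraries to separate mice. The p-values therefore reflect variation among these libraries, which may be technical.

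A dividing cell first loads the MCM2-7 helicase onto replication origins, a step called licensing that needs Cdc6. It then activates the helicase with kinases, among them Cdk2 with its partner cyclin E. DNA is copied with polymerases held in place by the sliding clamp PCNA. Genes of this phase are classically switched on by E2F transcription factors. Mitosis genes peak later, under cyclin A, cyclin B and Cdk1, and are classically held down between divisions by a repressor complex that sits on a promoter element called CHR (cell cycle genes homology region), often beside CCAAT boxes bound by NF-Y. In tumours, some macrophages divide locally, as do tumour cells, fibroblasts and activated T cells. A sort for CD45, CD11B and F4/80 is meant to leave the last 3 kinds of cell out. In bulk RNA, fewer cells of a type and less RNA per cell cannot be told apart.

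Library totals ran from 13122668 to 20156835 counts, and a floor of 3 counts corresponded to 0.149 to 0.229 CPM (counts per 1000000 counts of the library), far below the level of each of the 40 genes. Such floors cover counting error only. Of the genes behind the gate, Ptprc (CD45) lay between 22.1 and 33.0 CPM, Itgam (CD11B) between 12.2 and 19.0 CPM and Adgre1 (F4/80) between 5.73 and 9.87 CPM, while Ly6g did not exceed 0.189 CPM. Of the 14 macrophage markers, 10 were lower after ablation, and their summed level was 264 to 317 CPM in Treg-ablated against 473 to 490 CPM in control libraries, led by Lyz2 and Csf1r. Of 12 fibroblast markers 1 was higher and 5 lower, and their sum was 11056 to 11752 against 9947 to 12114 CPM, led by Col3a1 (7467 to 9556 CPM) and Dcn (719 to 990.1 CPM). Of the 13 epithelial and tumour markers 6 could be tested and 0 passed by edgeR, DESeq2 or limma-voom (2 lower by edgeR and limma-voom and 0 by DESeq2 at an unadjusted p under 0.05), with a sum of 274 to 316 against 309 to 334 CPM, led by Krt18 (180 to 222 CPM) and Krt8 (74.8 to 89.8 CPM), and Cldn3 had under 3 counts in every library. T cell markers (13 of 15 higher) summed to 85.9 to 90.4 against 36.5 to 45.02 CPM, led by Thy1 and Lck. Thy1, at 18.6 to 27.5 CPM, is also on the fibroblast list and counts in both sums. Cytotoxic T and NK cell markers (10 of 12 higher) summed to 83.5 to 84.0 against 26.7 to 29.6 CPM, led by Gzmb and Gzma. Of the 12 B and plasma cell markers 10 were tested, 7 higher and 1 lower, with a sum of 328 to 331 against 350 to 378 CPM, most of it Sdc1 and next Igkc. Mast cell markers (6 of 6 tested higher) summed to 43.9 to 47.3 against 20.2 to 28.9 CPM, led by Tpsb2 and Mcpt4. Of the dendritic cell list 1 gene was higher and 1 lower among 7 tested, at 59.5 to 60.3 against 52.2 to 54.7 CPM, led by Clec9a and Itgax. Neutrophil markers (1 of 3 tested higher) summed to 8.98 to 11.4 against 7.32 to 8.96 CPM, led by Retnlg and Csf3r, with Elane and Camp under 3 counts everywhere, and endothelial markers, led by Pecam1 and Cdh5, to 11.5 to 13.3 against 11.6 to 15.99 CPM. Of the endothelial list 0 of 6 tested passed by edgeR, DESeq2 or limma-voom (1 lower by edgeR and limma-voom and 0 by DESeq2 at an unadjusted p under 0.05). No listed marker was at 0 in every library. Beside these lists, 13.5% of all genes tested were higher and 12.3% lower. Transcripts of collagen and keratin genes were thus present in libraries of a sort meant to leave their usual cells out, and Adgre1, the gene of a sorted marker, was at most at 9.87 CPM. Which cells the transcripts of the 40 genes came from cannot be told from these libraries, so the values below describe the sorted samples and need not be those of macrophages alone. The part of the marker shifts in the results on the 40 genes was not tested.

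Promoters of the 2 groups carried different short sequences. RefSeq promoter windows (GRCm38.p6, 250 bases before to 50 after a start) were matched by symbol for 34 of the 40 genes, 13 replication and 21 mitosis genes, and searched on both strands for an E2F motif (TTTCCCGC, TTTCGCGC, TTTGCCGC or TTTGGCGC), for the CHR motif (TTTGAA) and for CCAAT. The E2F letters were found in 6 of 13 replication genes (46.2%) and 1 of 21 mitosis genes (4.76%, Cdk1), beside 2.60% of all 27025 genes with a window. The CHR letters were found in 1 of 13 replication genes (7.69%, Mcm2) and 16 of 21 mitosis genes (76.2%), beside 20.2% of all genes, and CCAAT in 9 of 13 (69.2%) and 19 of 21 (90.5%), beside 41.1%. In the 100 bases around the start the CHR letters were in 15 of 21 mitosis and 0 of 13 replication genes (5.72% of all genes), and the E2F letters in 3 of 13 replication and 0 of 21 mitosis genes (0.955% of all genes). These matches are a description of letters, not of binding. The 7 promoters below, each 200 bases from 170 before to 30 after the start, are examples picked by hand. They are those of 3 helicase subunits, of which Mcm5 and Mcm7 were lower and Mcm6 did not pass, and of the proliferation marker gene Mki67. The others are of 3 mitosis genes, of which Cdc20 and Ube2c serve the same ubiquitin ligase. All 3 subunits shown hold E2F letters, whereas Mcm2, which was lower and is not shown, held CHR letters and none of E2F. Capitals mark all matches to the 3 motifs on either strand, where TTCAAA is CHR and ATTGG is CCAAT read on the other strand. Matches overlap in places, as in the run TTTCGCGCCAAA of Mcm5, which holds an E2F match on each strand, and TTTCGCGCCAAT of Mcm7, which joins E2F letters to CCAAT. Mcm7 has 2 windows in the table, and the one with E2F letters is shown.
Mcm5 (chr8:75109339-75109538, plus strand): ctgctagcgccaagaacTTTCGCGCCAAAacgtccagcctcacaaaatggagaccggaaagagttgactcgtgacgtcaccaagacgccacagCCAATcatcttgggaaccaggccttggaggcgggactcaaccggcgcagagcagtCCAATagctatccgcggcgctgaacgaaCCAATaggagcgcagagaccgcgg
Mcm6 (chr1:128359676-128359875, minus strand): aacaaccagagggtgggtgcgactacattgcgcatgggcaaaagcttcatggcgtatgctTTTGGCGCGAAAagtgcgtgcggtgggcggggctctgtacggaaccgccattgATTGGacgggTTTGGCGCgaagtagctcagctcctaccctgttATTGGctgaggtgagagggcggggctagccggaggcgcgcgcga
Mcm7 (chr5:138171854-138172053, minus strand): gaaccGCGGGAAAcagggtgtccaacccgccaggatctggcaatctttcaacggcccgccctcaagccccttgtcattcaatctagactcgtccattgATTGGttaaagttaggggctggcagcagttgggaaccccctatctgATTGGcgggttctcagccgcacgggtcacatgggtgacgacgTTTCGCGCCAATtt
Mki67 (chr7:135716350-135716549, minus strand): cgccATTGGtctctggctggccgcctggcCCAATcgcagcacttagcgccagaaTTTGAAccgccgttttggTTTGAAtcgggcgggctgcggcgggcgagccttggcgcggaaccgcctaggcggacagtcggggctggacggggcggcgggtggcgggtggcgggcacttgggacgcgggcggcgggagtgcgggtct
Cdc20 (chr4:118437314-118437513, minus strand): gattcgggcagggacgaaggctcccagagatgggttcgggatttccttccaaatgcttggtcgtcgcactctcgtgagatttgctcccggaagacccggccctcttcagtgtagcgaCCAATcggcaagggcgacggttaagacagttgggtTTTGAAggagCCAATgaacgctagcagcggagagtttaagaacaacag
Ccnb2 (chr9:70421525-70421724, minus strand): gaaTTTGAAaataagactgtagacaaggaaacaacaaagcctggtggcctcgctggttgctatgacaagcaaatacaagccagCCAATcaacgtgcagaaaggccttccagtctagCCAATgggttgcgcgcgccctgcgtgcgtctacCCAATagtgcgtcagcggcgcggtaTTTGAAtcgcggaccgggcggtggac
Ube2c (chr2:164769759-164769958, plus strand): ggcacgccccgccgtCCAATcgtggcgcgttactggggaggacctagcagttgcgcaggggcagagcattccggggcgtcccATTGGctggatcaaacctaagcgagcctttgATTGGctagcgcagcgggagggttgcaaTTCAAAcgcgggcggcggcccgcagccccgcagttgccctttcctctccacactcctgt

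After ablation the 40 genes did not move as a block. By edgeR's quasi-likelihood test with Benjamini-Hochberg adjustment over all genes, 4 were higher (10%), 8 lower (20%) and 28 did not pass an adjusted p of 0.05, where 13.5% of all genes tested were higher and 12.3% lower. Their median log2 fold change was -0.02, beside -0.006 over all genes tested. Among the 15 replication genes Mcm4 was higher (6.67%), Mcm2, Mcm5, Mcm7, Cdc6 and Ccne1 were lower (33.3%), and the median was -0.19. Among the 25 mitosis genes Ccna2, Ccnb2 and Ube2c were higher, Mki67, Plk1 and Cdc20 were lower (12% each way, close to the share of all genes), and the median was 0.09. The Treg-ablated libraries lay entirely above the controls in 3 replication and 9 mitosis genes and entirely below in 9 and 6, which happened in 26.9% and 25.6% of all genes tested. All changes were small: the greatest, of Mki67, was 1.41-fold, and in edgeR's test against a fold of 1.5 the count was 0 of 40 (also 0 at an unadjusted p under 0.05), where 0.672% of all genes were higher and 0.158% lower. Scaling by library size alone gave 7 higher and 7 lower. Without control replicate 2 the test called 0 of the 40 higher (3 at an unadjusted p under 0.05) and 2 lower, Mcm2 and Mcm5, when it called 5.62% and 3.84% of all genes. DESeq2 called 1 higher and 7 lower, where it called 9.4% and 9.25% of all genes, and limma-voom 4 and 8 (13.6% and 12.1%). The share of all genes called higher and lower was 14.7% and 10.6% by library size alone, 14.3% and 12.6% with a filter of mean 1 CPM, 17.7% and 17.2% with a gene length offset and 22.8% and 22.1% with a transcript length offset. It was 8.89% and 7.65% with the replicate number as a block and 7.79% and 6.89% with block and GC offset. It was 9.32% and 8.72% without Treg-ablated replicate 1, 10.2% and 9.06% without replicate 2, 11.7% and 9.97% without control replicate 1, and 11.7% and 10.6% without control replicate 3.

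**Figure D1:**
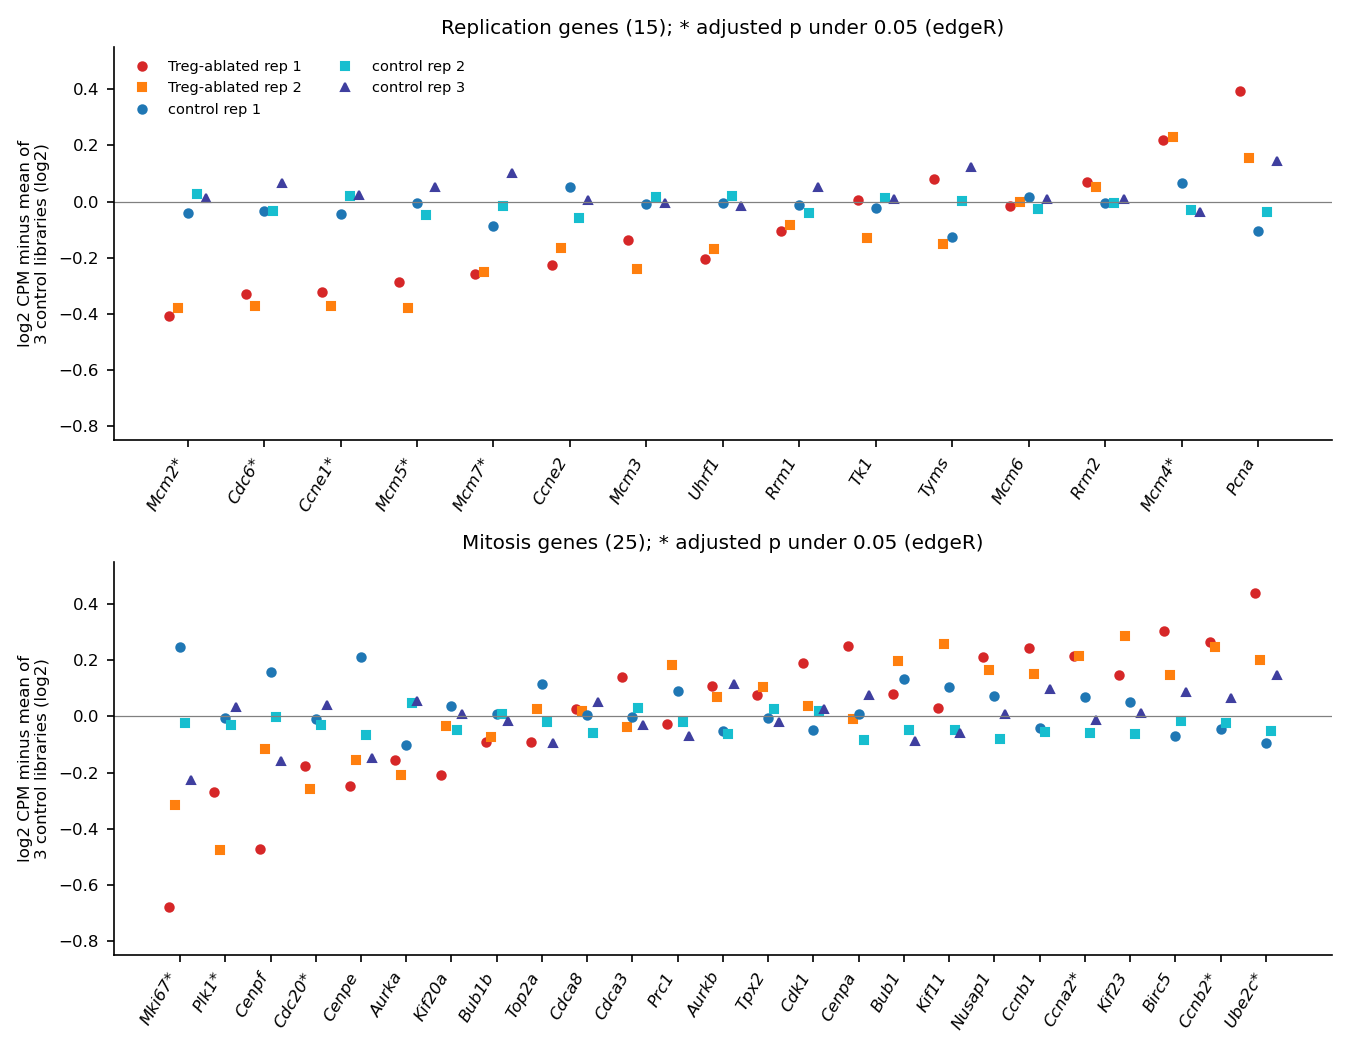
Each column is a gene and each point 1 library, with replication and mitosis genes in separate panels. The height of a point is its log2 CPM minus the mean of the 3 control libraries. Stars mark genes with an adjusted p under 0.05 (edgeR). Mcm2, Mcm5 and Plk1 show both Treg-ablated libraries below all controls, and Mki67 and Cenpf show wide spreads within both groups.

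**Figure D2:**
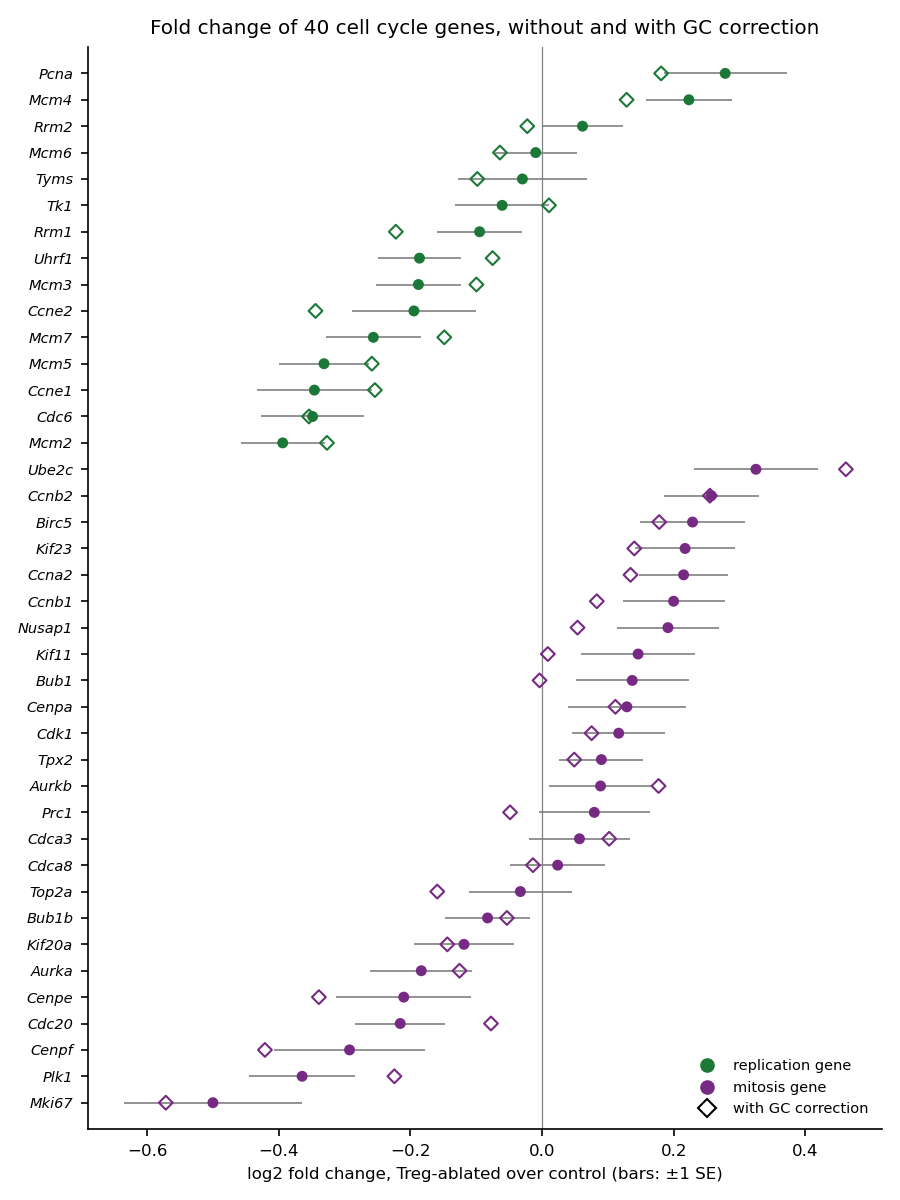
Log2 fold changes (Treg-ablated over control) of the 40 genes with bars of 1 SE from edgeR, ordered by value within replication and mitosis genes. Filled circles, coloured by list, are the values without an offset, and open diamonds are those with a GC offset. The filling does not mark the adjusted p. The values without an offset run from -0.50 for Mki67 to 0.32 for Ube2c. Of them, those of 3 of 15 replication genes and 16 of 25 mitosis genes are above 0.

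The 6 subunits of the MCM2-7 helicase, which assemble as a ring with 1 copy of each, were called in opposite directions: 3 lower, 1 higher and 2 not passed. Mcm2 (ENSMUSG00000002870, chromosome 6, 88883474 to 88898780) was at 160.0 and 163 CPM in Treg-ablated replicates 1 and 2 and at 207, 217 and 214 CPM in control replicates 1, 2 and 3. It fell by 0.39 on the log2 scale (SE 0.0637, adjusted p = 0.00228), with both ablated libraries below every control. Mcm2 was the call that held most widely, in 17 of 18 alternative analyses, all but the test against a fold of 1.5. Mcm5 (ENSMUSG00000005410, chromosome 8, 75109528 to 75128439) was at 130.4 and 122 CPM against 158, 154 and 165 CPM. That is a fall of 0.33 (SE 0.0679, adjusted p = 0.00667), again with no overlap of the groups. Mcm7 (ENSMUSG00000029730, chromosome 5, 138164583 to 138172422) was at 139 and 140 CPM against 156, 164 and 178 CPM, lower in both ablated libraries than in any control. Its log2 fold change was -0.26 (SE 0.0727, adjusted p = 0.0266).

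Mcm4 (ENSMUSG00000022673, chromosome 16, 15623897 to 15637400) went the other way, at 144 and 146 CPM against 130, 122 and 121 CPM. Both ablated libraries were above every control, and the log2 fold change was 0.22 (SE 0.0652, adjusted p = 0.0301). Mcm6, the highest of the 40 genes per kilobase of annotated exon, was at 300.3 and 303 CPM against 307, 298 and 306 CPM. The groups of Mcm6 overlapped (log2 fold change -0.01, SE 0.0623, adjusted p = 0.926). Mcm3 was at 181 and 168 CPM against 198, 201 and 198 CPM. Both ablated values were below the controls, at a log2 fold change of -0.19 (SE 0.0650) that did not pass (adjusted p = 0.0557). The ratio of Mcm4 to Mcm2 counts, which no scaling between libraries can alter and which was chosen after the values were seen, was 0.903 and 0.891 in ablated and 0.629, 0.562 and 0.565 in control libraries.

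**Figure D3:**
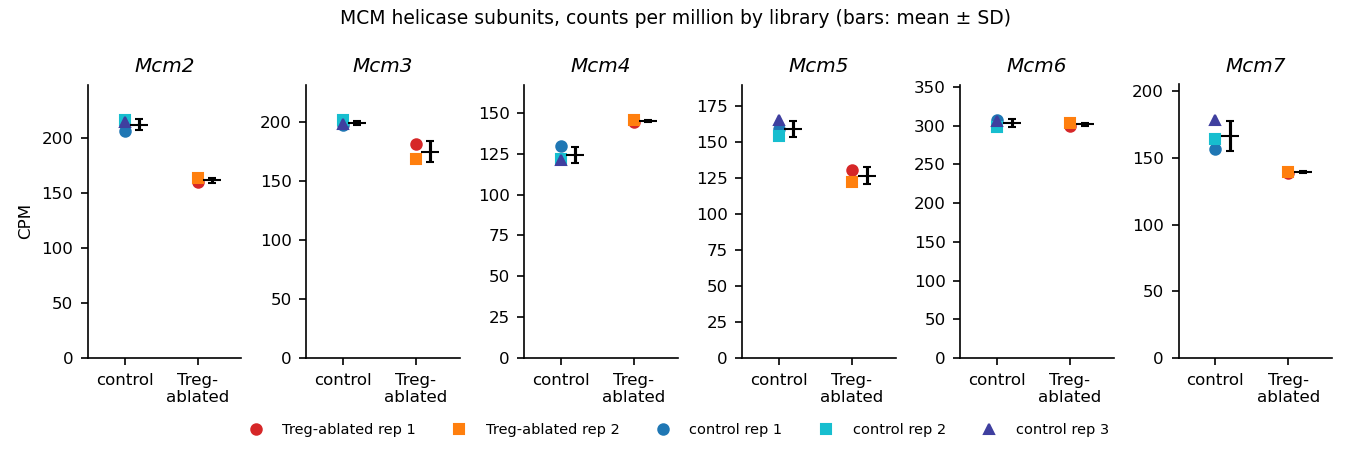
CPM of the 6 MCM2-7 subunits in each library, 1 panel per gene with an axis from 0, coloured points for single libraries and black bars for mean ± SD (n = 3 control, n = 2 Treg-ablated). The ablated points lie below the controls for Mcm2, Mcm3, Mcm5 and Mcm7, above for Mcm4, and among them for Mcm6.

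The calls of Mcm4 and Mcm7 held in fewer alternatives (8 and 10 of 18) than those of Mcm2 and Mcm5 (17 and 15). Mcm4 ended at an adjusted p of 0.0796 without Treg-ablated replicate 1, 0.0877 without replicate 2, 0.135 without control replicate 2 and 0.0754 without control replicate 3, and Mcm7 at 0.0750, 0.0677, 0.0932 and 0.0729 in the same order. Base composition moved with this split. Transcripts of Mcm2, Mcm3, Mcm5 and Mcm7 have a GC content of 51.7% to 53.4%, in a range (50% to 55%) where the median log2 fold change of all genes was -0.09, and those of Mcm4 and Mcm6 of 45.5% and 47.3%, in a range (45% to 50%) where it was 0.05. With a GC offset Mcm2 (-0.33, adjusted p = 0.00534) and Mcm5 (-0.26, adjusted p = 0.0181) still passed, where 10.5% of all genes were higher and 8.9% lower. Mcm4 (0.13, adjusted p = 0.142) and Mcm7 (-0.15, adjusted p = 0.130) then did not. Mcm7 shares 64 bases with Cops6 on the other strand, whose count equalled 83.4% of its own, and the counting was not stated to use strand.

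Cdc6 and the cyclin E gene Ccne1 were also lower. Cdc6 (ENSMUSG00000017499, chromosome 11, 98907801 to 98923940), the loader of the helicase, was at 31.3 and 30.4 CPM against 38.4, 38.4 and 41.1 CPM. The groups did not overlap, and it fell by 0.35 (SE 0.0778, adjusted p = 0.0100). With a GC offset the Cdc6 value was the same, -0.35 (adjusted p = 0.00970), and without control replicate 2 its adjusted p was 0.05003, just above the threshold. Ccne1 (ENSMUSG00000002068, chromosome 7, 38097984 to 38107534), which encodes cyclin E1, the partner of Cdk2 at the start of replication, was at 20.05 and 19.4 CPM against 24.3, 25.4 and 25.5 CPM. It fell by 0.35 (SE 0.0878, adjusted p = 0.0169), with both ablated libraries below the controls, and the adjusted p was 0.0524 with a GC offset, 0.0717 without Treg-ablated replicate 2 and 0.0807 without control replicate 2. Ccne2, its close relative, was at 17.1 and 17.8 against 19.2 to 20.7 CPM. Its log2 fold change was -0.19 (SE 0.0944) and passed only with the corrections that included GC content and no block (adjusted p = 0.154, and 0.0243 with a GC offset). Ints8 overlaps Ccne2 on the other strand, and its own count equalled 122% of that of Ccne2.

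The clamp and the nucleotide enzymes gave no call, though Pcna lay at the threshold. Pcna, the sliding clamp, was at 112 and 94.8 CPM against 79.1, 82.9 and 94.1 CPM. Both ablated libraries were above the controls, replicate 2 barely so, and the log2 fold change of 0.28 (SE 0.0935) did not pass (adjusted p = 0.0505). It passed in 8 of 18 alternatives, among them those without Treg-ablated replicate 2 (0.40, adjusted p = 0.0117) and without control replicate 3 (0.35, adjusted p = 0.0180), while without Treg-ablated replicate 1 it was 0.15 (adjusted p = 0.309). Its value is uncertain, because the processed copy Pcna-ps2 drew 8717 counts, more than the 7216 of Pcna itself. Pcna-ps2 was at 129 and 121 CPM against 102, 103 and 104 CPM, and passed as higher (log2 fold change 0.27, SE 0.0652, adjusted p = 0.0131). Rrm1, the large subunit of ribonucleotide reductase, was at 200.2 and 203 CPM against 214, 209 and 223 CPM, a small difference without overlap (-0.09, SE 0.0641, adjusted p = 0.302) that passed with a GC offset (-0.22, adjusted p = 0.0324). Rrm2, the small subunit that cycles with replication, was at 132 to 134 against 127 to 129 CPM (0.06, adjusted p = 0.497). Of the thymidylate genes, Tyms (35.8 to 41.9 against 36.3 to 43.2 CPM) and Tk1 (59.0 to 64.8 against 63.6 to 65.2 CPM) overlapped between groups. Uhrf1, which carries DNA methylation across replication, was at 109 to 112 against 124 to 127 CPM and did not pass (-0.19, SE 0.0633, adjusted p = 0.0524).

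Of the mitotic cyclins, A2 and B2 rose. Ccna2 (ENSMUSG00000027715, chromosome 3, 36564865 to 36572150), which acts from replication to mitotic entry, was at 108 and 108 CPM against 97.3, 89.1 and 92.0 CPM. Both ablated libraries exceeded the controls (log2 fold change 0.21, SE 0.0677, adjusted p = 0.0398). Ccnb2 (ENSMUSG00000032218, chromosome 9, 70407689 to 70421554), a partner of Cdk1, was at 52.1 and 51.5 CPM against 42.1, 42.7 and 45.4 CPM. It rose by 0.26 (SE 0.0722, adjusted p = 0.0257) with no overlap, and by 0.25 with a GC offset (adjusted p = 0.0262). Ccnb1 was at 52.3 to 55.7 against 45.3 to 50.3 CPM and did not pass (0.20, SE 0.0775, adjusted p = 0.0815). The pseudogene Ccnb1-ps, with 2023 counts to its 3884, passed as lower (-0.35, SE 0.0989, adjusted p = 0.0268). Whether reads were shared between the copies was not examined, so the value of Ccnb1 is uncertain. Cdk1, the kinase that these cyclins activate, was at 128 and 115 CPM against 108, 113 and 114 CPM, with ablated replicate 2 barely above the controls (0.12, SE 0.0709, adjusted p = 0.253). The 2 called cyclins lost their calls in many alternatives. Without Treg-ablated replicates 1 and 2 and control replicates 2 and 3 the adjusted p of Ccna2 was 0.105, 0.101, 0.175 and 0.0828, and with a GC offset 0.144. Ccnb2 had 0.0858 and 0.0593 without Treg-ablated replicates 1 and 2, and 0.0628 and 0.114 without control replicates 1 and 2. Exosc9 overlaps Ccna2 on the other strand, and its own count equalled 56.6% of that of Ccna2.

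The anaphase-promoting complex, the ubiquitin ligase that ends mitosis, showed opposite changes in 2 of its partners. Ube2c (ENSMUSG00000001403, chromosome 2, 164769898 to 164778822), its ubiquitin-conjugating enzyme, was at 87.4 and 74.1 CPM against 60.3, 62.2 and 71.4 CPM. Both ablated libraries were above the controls, though replicate 2 lay close to control replicate 3. Ube2c rose by 0.32 (SE 0.0946, adjusted p = 0.0296), and by 0.46 with a GC offset (adjusted p = 0.00548). Cdc20 (ENSMUSG00000006398, chromosome 4, 118432901 to 118437352), its activator, was at 82.1 and 77.5 CPM against 92.1, 90.7 and 95.5 CPM, below every control. Its fall of 0.22 (SE 0.0680, adjusted p = 0.0399) was the least stable call of the 12, held in 6 of 18 alternatives. Cdc20 had an adjusted p of 0.401 with a GC offset, 0.0601 and 0.193 without Treg-ablated replicates 1 and 2, and 0.0733, 0.112 and 0.100 without control replicates 1, 2 and 3. Ube2c had 0.188 without Treg-ablated replicate 1 (log2 fold change 0.20) and 0.0750 and 0.132 without control replicates 1 and 2. Elovl1 overlaps Cdc20 on the other strand by 53 bases, and its own count equalled 95.9% of that of Cdc20.

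Among mitotic kinases Plk1 fell and the Aurora kinases did not pass. Plk1 (ENSMUSG00000030867, chromosome 7, 122159439 to 122169873), polo-like kinase 1, which matures centrosomes and promotes mitotic entry, was at 49.0 and 42.5 CPM against 58.9, 57.9 and 60.5 CPM. It fell by 0.36 (SE 0.0802, adjusted p = 0.00923) with no overlap. The adjusted p was 0.0513 with a GC offset (-0.22, with a transcript GC content of 56.0%), 0.0595 without Treg-ablated replicate 2 and 0.05003 without control replicate 2. Aurka, which acts at spindle poles, was at 45.4 to 47.0 against 48.9 to 54.4 CPM (-0.18, adjusted p = 0.105). Aurkb, the kinase of the chromosomal passenger complex, was at 53.5 to 54.97 against 48.8 to 55.2 CPM (0.09, adjusted p = 0.437). Its partners Birc5 (survivin) and Cdca8 (borealin) were at 60.3 to 67.1 against 51.8 to 57.8 CPM (0.23, adjusted p = 0.0571) and at 46.5 to 46.8 against 44.1 to 47.7 CPM (0.02, adjusted p = 0.838).

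Mki67 (ENSMUSG00000031004, chromosome 7, 135689788 to 135716379), whose protein Ki-67 coats mitotic chromosomes and marks cycling cells, was at 119 and 153 CPM against 226, 188 and 163 CPM. The groups did not overlap, but ablated replicate 2 came close to control replicate 3, and the SE of Mki67 was the greatest of the 40 genes. Mki67 fell by 0.50 (SE 0.135, adjusted p = 0.0218), and by 0.57 with a GC offset (adjusted p = 0.0157). Without Treg-ablated replicate 1 the fall was 0.33 (adjusted p = 0.0863), and without control replicate 2 it was 0.52 (adjusted p = 0.0840). Top2a, the topoisomerase that untangles sister chromosomes and the other common proliferation marker here, was at 377 and 409 CPM against 434, 396 and 376 CPM. Those ranges overlapped almost entirely (log2 fold change -0.03, SE 0.0784, adjusted p = 0.790). The kinetochore genes Cenpf (50.2 to 64.2 against 62.4 to 77.7 CPM; -0.29, SE 0.115, adjusted p = 0.0848) and Cenpe (55.7 to 59.4 against 59.8 to 76.7 CPM; -0.21, SE 0.103, adjusted p = 0.157) did not pass. With a GC offset both passed as lower (-0.42 with adjusted p = 0.0206 for Cenpf, -0.34 with adjusted p = 0.0276 for Cenpe).

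The remaining mitosis genes gave no call. Of the spindle checkpoint kinases, Bub1 was at 50.6 to 54.8 against 45.1 to 52.5 CPM and Bub1b at 90.2 to 91.3 against 94.9 to 96.7 CPM, and the centromeric histone gene Cenpa at 55.4 to 66.4 against 52.7 to 58.8 CPM. Of the spindle motors, Kif11, which pushes the poles apart, was at 82.3 to 96.6 against 77.4 to 86.8 CPM. Kif20a and Kif23, which act at the midzone and in cytokinesis, were at 59.9 to 67.5 against 66.9 to 70.9 CPM and at 56.4 to 62.0 against 48.8 to 52.7 CPM. Kif23 came nearest to a call among these (0.22, SE 0.0756, adjusted p = 0.0570). The microtubule-associated genes Tpx2, Prc1 and Nusap1 were at 101 to 103 against 94.4 to 97.5 CPM, 61.5 to 71.1 against 59.6 to 66.6 CPM and 44.96 to 46.4 against 37.9 to 42.1 CPM. Cdca3, a trigger of mitotic entry, was at 48.05 to 54.3 against 48.2 to 50.3 CPM. Of the 40 genes, 9 overlapped a neighbour whose own count equalled over 5% of theirs. Among them were also Kif20a (Cdc23, 96.9%), Nusap1 (Oip5, 34.2%), Cdca8 (26.5%), Tk1 (Afmid, 11.6%) and Prc1 (Rccd1, 8.96%).

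Levels of different genes were compared per kilobase of exon. Averaged over the 5 libraries, Mcm6 had the highest level with 64.9 CPM per kb, ahead of Rrm1 (52.5), Mcm3 (50.4) and Rrm2 (46.9). Library ranges of Mcm6 (63.9 to 65.8 CPM per kb) and Rrm1 (50.1 to 55.8) did not meet, while those of Rrm1 and Mcm3 (44.9 to 53.7) overlapped, as did those of Mcm3 and Rrm2 (46.0 to 48.4). Of the mitosis genes Cdc20 was at 46.9 CPM per kb, Top2a at 44.2 and Cdk1 at 33.5. Library ranges of Cdc20 (41.5 to 51.1) and Top2a (41.7 to 48.2) overlapped, and their order differed between groups, with means of 42.7 and 43.6 in Treg-ablated and 49.7 and 44.6 in control libraries. The lowest levels were those of Cenpf (4.20), Ccne2 (5.43), Tyms (6.47) and Cdc6 (6.87). The median level was 35.1 CPM per kb for replication and 17.5 for mitosis genes. These lengths join all annotated exons of a gene, so genes with a long rare exon come out low. Top2a has 9013 bases of exon but 5221 in its longest coding transcript, and Mcm6 has 4666 and 4355. Which of these 2 genes stands higher therefore depends on the length used.

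Set against each other within each library, the replication genes stood lower relative to the mitosis genes in both Treg-ablated libraries than in any control. The mean log2 CPM of the 15 replication genes, relative to the mean of the controls, was -0.10 and -0.15 in Treg-ablated replicates 1 and 2, against -0.02, -0.01 and 0.04 in the controls. The mean of the 25 mitosis genes was 0.01 and 0.03 against 0.03, -0.03 and -0.004, so there the groups overlapped. The difference between the 2 means, replication minus mitosis, was 0.35 and 0.29 in ablated and 0.40, 0.48 and 0.50 in control libraries, where the controls had an SD of 0.0513. No p is given, since the genes were chosen with earlier results of these data known. The difference of the 2 median log2 fold changes was -0.28, and with a GC offset it shrank to -0.11. The medians were then -0.10 for replication genes and 0.01 for mitosis genes. Under that offset 0 replication genes were higher (1 at an unadjusted p under 0.05) and 5 lower (Mcm2, Mcm5, Cdc6, Ccne2 and Rrm1), and 2 mitosis genes were higher (Ccnb2 and Ube2c) and 3 lower (Mki67, Cenpe and Cenpf), where 10.5% of all genes were higher and 8.9% lower.

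Base composition moved with the fold changes across the whole table. Over 14537 genes with a GC content, Spearman's rho between it and the log2 fold change was -0.34, and it was -0.33 over the 40 genes, -0.49 over the 15 replication and -0.18 over the 25 mitosis genes. Over the 8549 genes with a mean log2 CPM of at least 4, a level that all 40 reached, rho was -0.48. Genes are not independent replicates and share all 5 libraries, so these are descriptions. The median log2 fold change of all genes ran from 0.14 at a GC content of 40% to 45% to -0.15 at 55% to 60%. The 3 members in the latter range were Plk1 and Cdc20, which were lower, and Ube2c, which was higher against the trend. Mki67 was lower at a GC content of 46.6%, and Cdc6 at 49.2%, in a range where the median of all genes was 0.05.

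**Figure D4:**
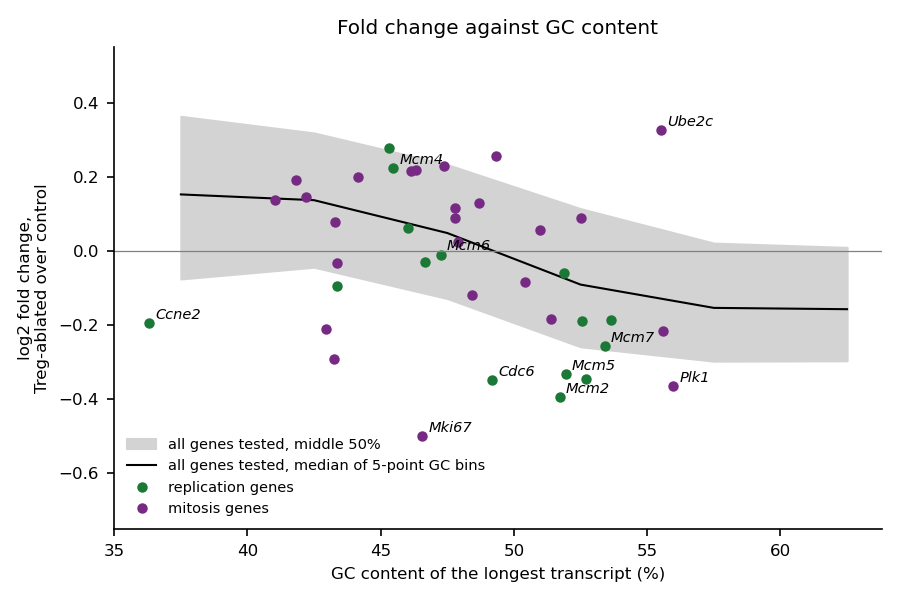
Log2 fold change (Treg-ablated over control) of the 40 genes against transcript GC content in percent, with the line giving the median of all genes tested in bins of GC content. Mcm2, Mcm5, Cdc6 and Mki67 lie below the line and Ube2c above it.

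Transcript length moved with the differences between libraries of the same group. Between Treg-ablated replicates, replicate 2 minus replicate 1, Spearman's rho of the log2 CPM difference with the length of the longest coding transcript was 0.64 over the 40 genes, beside 0.52 over 12230 genes. Between control replicates 1 and 3 it was 0.56, beside 0.50. Over the 8079 of these genes with a mean log2 CPM of at least 4, a level that all 40 reached, it was 0.71 and 0.70. By rho the values of the 40 genes were thus below those of genes at or above this level. By Pearson's r with log2 length they were close, at 0.70 and 0.70 beside 0.72 and 0.70. Mki67 (10061 bases) and Cenpf (11130 bases), the 2 of the 40 over 8000 bases, had median differences of 0.36 and 0.39 in these 2 pairs, while the 9 genes of 1000 to 2000 bases had medians of -0.08 and -0.07. The 2 differences had the same sign in 35 of the 40 genes, and the share over all genes was not counted. Spearman's rho between the 2 differences was 0.73 over the 40 genes. It was 0.36 over all 14580 genes tested and 0.68 over 8552 with a mean log2 CPM of at least 4, so they went together across the table. Not every gene followed the order of transcript lengths. Cenpe (7910 bases) differed by 0.36 between the control replicates but by 0.09 between the ablated ones. Ube2c (2191 bases) differed by -0.24 in both pairs, where all genes of 2000 to 4000 bases had medians of -0.009 and -0.02. With offsets on both GC content and transcript length, chosen after seeing the data, Mki67 fell by 0.41 (adjusted p = 0.000154) and Ube2c rose by 0.42 (adjusted p = 8.74e-05). In that fit 1 replication gene was higher and 7 lower, and 3 mitosis genes were higher and 5 lower, where 18.6% of all genes were higher and 17% lower.

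**Figure D5:**
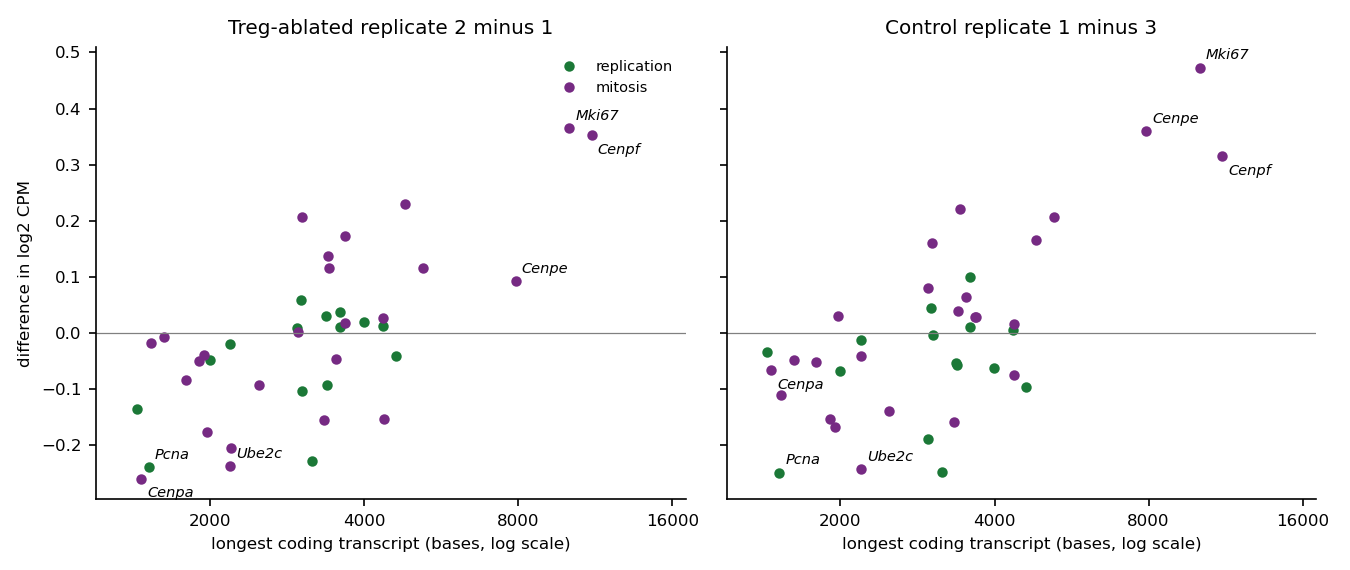
Difference in log2 CPM between 2 libraries of the same group (left, Treg-ablated replicate 2 minus 1; right, control replicate 1 minus 3) against the longest coding transcript in bases on a log axis, 1 point per gene. In both panels the long transcripts of Mki67, Cenpe and Cenpf are above 0, Cenpe only slightly on the left, and those of Pcna, Cenpa and Ube2c are below 0.

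Other cell cycle genes, from 6 lists by textbook role, were likewise called in both directions. These lists too were drawn up with earlier results of these data known. Of 168 genes, 165 could be tested, of which 24 were higher (14.5%) and 17 lower (10.3%), close to the 13.5% and 12.3% of all genes. Of 51 further replication genes 3 were higher and 4 lower, with a median log2 fold change of -0.04. Slbp, which binds histone mRNA (0.48, SE 0.0781, adjusted p = 0.00243), Cdc7, the kinase that activates the loaded MCM ring (0.38, SE 0.0912, adjusted p = 0.0133), and Tipin of the fork protection complex (0.35, SE 0.0730, adjusted p = 0.00740) rose. Pole, the leading-strand polymerase subunit, fell by 0.36 (SE 0.0935, adjusted p = 0.0191). The adjusted p of Tipin was 0.101 with a GC offset, that of Cdc7 0.0513 without Treg-ablated replicate 2 and 0.0818 without control replicate 2, and that of Pole 0.147 without Treg-ablated replicate 1 and 0.0858 without control replicate 2. Of 64 further mitosis genes 10 were higher and 7 lower, with a median of 0.05. Hmgb2, a chromatin protein, had the greatest rise of those named (0.76, SE 0.0958, adjusted p = 0.000737), with Fbxo5, an inhibitor of the anaphase-promoting complex (0.47, SE 0.0958, adjusted p = 0.00671). The condensin genes split, Smc4 higher by 0.37 (SE 0.0634, adjusted p = 0.00275) and Ncapd2 lower by 0.39 (SE 0.0676, adjusted p = 0.00306).

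Regulators of entry into the cycle moved in both directions. Myc, a transcription factor that drives growth, was at 505 and 491 CPM against 317, 330.0 and 326 CPM. Both ablated libraries were above the controls, and the rise was 0.62 (SE 0.0631, adjusted p = 0.000269). Of the 10 genes on the G1 cyclin and kinase list, which is a loose grouping that includes Myc, Ccnh was also higher (0.34, SE 0.0748, adjusted p = 0.00903). Ccnd2 was lower (-0.23, SE 0.0712, adjusted p = 0.0387), and Cdk4 had a value of -0.23 that did not pass (adjusted p = 0.0547). Mybl2, a late activator of the mitosis programme, was at 35.5 and 32.4 CPM against 48.6, 49.1 and 49.7 CPM. It fell by 0.53 (SE 0.0763, adjusted p = 0.00128), and by 0.39 with a GC offset (adjusted p = 0.00510). Of the 16 transcription factors E2f1 also fell (by 0.27, SE 0.0777, adjusted p = 0.0287, and 0.244 with a GC offset), E2f5 rose (0.41, SE 0.0952, adjusted p = 0.0118) and Lin9 did not pass (0.28, adjusted p = 0.0726). Ccnd2 lost its call without Treg-ablated replicates 1 and 2 (adjusted p = 0.169 and 0.0554) and without control replicates 1 and 2 (0.103 and 0.155). E2f1 had 0.194 without Treg-ablated replicate 2 and 0.0538 and 0.137 without control replicates 1 and 2. Without control replicate 2 Ccnh had 0.0644 and E2f5 0.0522, and Ccnh had 0.113 with a GC offset.

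Among brakes on the cycle, 1 of 7 tested CDK inhibitors and pocket proteins was higher (14.3%, beside 13.5% of all genes). This was Cdkn1b (p27), at 75.6 and 72.3 CPM against 58.9, 59.4 and 59.5 CPM (0.32, SE 0.0665, adjusted p = 0.00726, 0.0698 with a GC offset and 0.0505 without control replicate 2). Cdkn1a (p21; -0.22, adjusted p = 0.0544), Cdkn2c (p18; -0.24, adjusted p = 0.0914) and Rbl1 (p107; 0.22, adjusted p = 0.170) did not pass. Of 17 p53 targets and growth arrest genes 7 were higher and 3 lower, with a median of 0.06. These are 41.2% and 17.6%, beside 13.5% and 12.3% of all genes. The list was drawn up with earlier results of these data known, so no p is given for these shares. Gadd45a, which slows the entry into mitosis after damage, was at 91.4 and 86.4 CPM against 57.5, 57.3 and 60.5 CPM, a rise of 0.61 (SE 0.0683, adjusted p = 0.000421) without overlap. Ccng2 (0.56, SE 0.0756, adjusted p = 0.00101) and Btg1 (0.45, SE 0.0635, adjusted p = 0.00118), both antiproliferative, rose as well, and the stress gene Sesn2 fell by 0.55 (SE 0.0780, adjusted p = 0.00127).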

How the data were processed

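RNA-seq gene counts of 5 libraries, 2 Treg-ablated and 3 control, were grouped by the sample titles, which also give the replicate numbers. The deposited values are whole-number counts of fragments over exons, summed per gene and not normalized, made by the authors with featureCounts 1.6.2 on a filtered Ensembl 83 annotation of GRCm38, per the file headers. The recorded command sets no strand option, so a gene and a neighbour on the other strand cannot be told apart, and reads shared with pseudogene copies are uncertain. Also named in the submitters' processing notes are Trimmomatic 0.33, FastQC 0.11.5, DESeq2 1.16.1 and Subread 1.6.2.

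Symbols were joined by Ensembl identifier (46488 of 46983 genes). No library had a count for any of the 37 mitochondrially encoded genes. Libraries of the same group differed by more than sampling noise (chi-square per degree of freedom 4.22 to 7.92), so none was treated as a duplicate. This excess cannot tell separate mice from separate library preparations. Genes were kept by filterByExpr (14580), scaled by TMM (CPM use these factors) and tested with edgeR 4.0.16 in R 4.3.3 (quasi-likelihood F test, no block, Benjamini-Hochberg over all genes, threshold 0.05). The SE is |log2 fold change| over the root of the F statistic. Means per list and differences between libraries use log2 CPM with a prior count of 2. Other analyses scaled by RLE or by library size alone, used filters of 1 count in any library and of mean 1 CPM, DESeq2 1.42.0, limma-voom (limma 3.58.1), edgeR's test against a 1.5-fold change, a block on replicate number, per-library lowess offsets (span 0.3) on GC content, gene length or GC with the block, and leaving out each library. Without 1 Treg-ablated library the other is assumed to vary like the controls. Offsets on transcript length, alone or with GC, were added after seeing the data. GC content and length came from the reference transcripts, and promoter windows from RefSeq.

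The 40 genes and all lists were chosen with earlier results of these data known. Values in every library are given for genes past the threshold, the 3 highest per kilobase in each group, Mki67, Top2a, Pcna and up to 6 genes whose call changed with a GC offset. The up to 4 genes of smallest p are named of each other list, and the 2 highest of each marker list with those under 3 counts everywhere. Ccne2, Cenpf, Cenpe, Kif23 and the genes given by their range fall outside this rule, and were named to account for all 40.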

Additional observations from a re-analysis of the deposited data

How the results depend on the processing

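Each of the 12 calls among the 40 genes kept its direction in all 18 alternatives, and Mcm2 kept its call in 17 of them, Mcm5, Cdc6 and Mki67 in 15, Ube2c in 14, Plk1 in 13, Ccne1 in 12, Mcm7 and Ccnb2 in 10, Mcm4 in 8, Ccna2 in 7 and Cdc20 in 6. Of the 40 genes, 4 were higher and 8 lower. The higher count was 7 by library size alone, 1 by DESeq2, 2 with a GC offset, 9 with a gene length offset and 10 with a transcript length offset. Against a fold of 1.5 edgeR called 0 of the 40, 0 replication, 0 mitosis and 0 of the other cell cycle genes either way. For replication genes the higher count (1) was 2 by library size alone, with a filter of mean 1 CPM and with the gene or transcript length offset, and 0 by DESeq2 and with a GC offset. For mitosis genes the higher count (3) was 5 by library size alone, 1 by DESeq2, 7 with the gene length and 8 with the transcript length offset, and the lower count (3) was 5 with the gene length, the transcript length and the GC and transcript length offsets. Other cell cycle genes (24 higher, 17 lower) gave 39 higher and 35 lower with the transcript length offset, 31 lower with the gene length offset and 35 lower with the GC and transcript length offset.

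The same-numbered libraries did not deviate together (r of deviations from the group means -0.23 for number 1 and -0.02 for number 2), and the numbers were not taken as pairs. Both values rest on the same difference between the 2 Treg-ablated libraries, so they cannot settle whether the numbers mark pairs. With the replicate block 2 of the 40 were higher and 4 lower, with 1 replication gene lower, 1 mitosis gene higher and 9 other genes lower. With the replicate block and a GC offset 1 was higher and 5 lower, with 0 replication genes higher and 2 lower, 1 mitosis gene higher, and 9 other genes higher and 11 lower.

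Leaving out 1 library at a time gave 0 to 4 of the 40 higher and 2 to 7 lower, 0 to 1 replication genes higher and 2 to 5 lower, 0 to 3 mitosis genes higher and 0 to 3 lower, and 10 to 26 other genes higher and 3 to 14 lower. The lowest counts came without control replicate 2, the deepest library. The difference of median log2 fold changes, replication minus mitosis (-0.28), was -0.11 with a GC offset, -0.12 with the replicate block and a GC offset, -0.15 with the GC and transcript length offset, and -0.20 to -0.27 with 1 library left out. The cause of these moves was not tested.

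Signs turned in 28 cases, all for genes that did not pass. By library size alone Mcm6 was at 0.012. With a GC offset Rrm2 was at -0.023, Tk1 at 0.010, Cdca8 at -0.014, Bub1 at -0.0039 and Prc1 at -0.049. With the replicate block alone Tyms was at 0.027. With the replicate block and a GC offset Rrm2 was at -0.014, Tk1 at 0.0043, Bub1 at -0.030, Kif11 at -0.0089 and Prc1 at -0.073. With the gene length offset Mcm6 was at 0.0030. With the transcript length offset Mcm6 was at 0.017 and Top2a at 0.0068. With the GC and transcript length offset Rrm2 was at -0.063, Cdca8 at -0.063 and Prc1 at -0.058. With 1 library left out the values ran from -0.023 to 0.0019 for Mcm6, -0.15 to 0.081 for Tyms, -0.13 to 0.0080 for Tk1, -0.088 to 0.029 for Top2a, -0.037 to 0.14 for Cdca3, -0.0061 to 0.050 for Cdca8, -0.0097 to 0.25 for Cenpa and -0.023 to 0.18 for Prc1.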

Other observations

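Some values chosen after they were seen stand outside the comparisons above. The ratio of Ube2c to Plk1 counts was 1.78 and 1.74 in the Treg-ablated libraries and 1.03, 1.07 and 1.18 in the controls. Per kilobase of annotated exon, Mcm2 was at 23.3 in ablated and 30.5 in control libraries (CPM per kb), and Mcm4 at 40.4 and 34.6. By this length their order was the same in both groups. Mcm2 has 6956 bases of exon but 3371 in its longest coding transcript, while Mcm4 has 3589 for both. Which of the 2 stands higher therefore depends on the length used. Of the 13 replication genes with a promoter window, Mcm2 was the one that held the CHR letters, and of the 5 called replication genes with a fall, Mcm5, Mcm7 and Cdc6 held the E2F letters while Mcm2 and Ccne1 held none.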
